A study of Homo sapiens with 21 samples.

Results

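FGA, FGB and FGG encode the alpha, beta and gamma chains of fibrinogen, the clotting protein of blood plasma. They were taken by symbol from a table of 19683 gene symbols, and all 3 were among the 12345 symbols tested. The cells were HepG2/C3A, a human hepatoma-derived line that the labels give as wild type and untreated apart from how it was grown. The line was maintained in MEM medium with fetal bovine serum. In the control, 2D monolayer, the cells grew flat. In the other groups they were aggregated in ultra-low attachment plates and kept as 3D spheroids in a rotating ClinoReactor until Day 3, 7, 10, 14, 21 or 28. The question of the design was how the transcriptome changes as spheroids form and are maintained. Each of the 7 groups had 3 libraries of TempO-Seq, an assay that ligates pairs of detector oligos on RNA and counts the products. Depth ran from 18760232 to 43443262 counts per library (median 31997292). Replicates are named biological in the labels, without a word on separate cultures, so p-values measure only the spread between these samples. A line grown alone is a limited model of liver, since it has no other liver cells and is tumour derived.

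Hepatocytes make fibrinogen, assemble it in the endoplasmic reticulum from paired copies of each chain, and secrete it. Thrombin then cuts short peptides from the alpha and beta chains, the remaining fibrin polymerises, and factor XIII cross-links it into a stable clot. Fibrinogen is also an acute phase protein: interleukin-6, acting through its receptor, gp130 and STAT3, raises transcription of the 3 genes together with glucocorticoid, and C/EBP factors bind their promoters. All of these statements are background.

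The 3 genes lie side by side on chromosome 4 and FGB faces the other way from FGA and FGG. In GENCODE 29 on GRCh38, FGB (ENSG00000171564.11) spans chr4:154562956-154571086 on the plus strand. FGA (ENSG00000171560.14) spans chr4:154583126-154590766 on the minus strand, and FGG (ENSG00000171557.16) spans chr4:154604134-154612967, also on the minus strand. The gap between FGB and FGA is 12039 bases and that between FGA and FGG is 13367 bases. The coding isoforms differ in FGA by an added exon (FGA-201 with 866 codons and FGA-202 with 644) and in FGG at its end (FGG-201 with 453 codons and FGG-203 with 437), while FGB-201 has 491. The table gives 1 count per symbol, so isoforms cannot be told apart here.

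**Figure D1:**
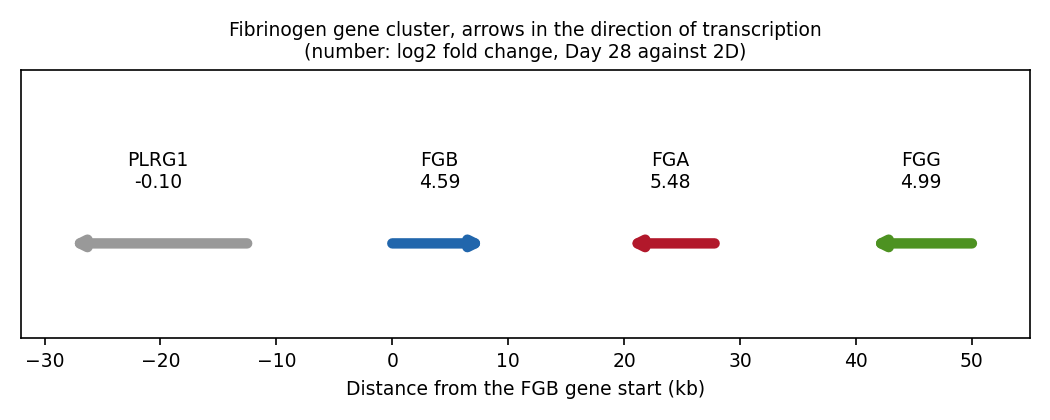
Map of the fibrinogen gene cluster to scale, with distance from the start of FGB in kb on the x axis. Bars are genes, arrowheads point in the direction of transcription, and the number above each gene is its log2 fold change at Day 28 against 2D: 4.59 for FGB, 5.48 for FGA and 4.99 for FGG, beside -0.10 for the neighbour PLRG1.

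The promoters are shown because all 3 genes rose in every comparison with the monolayer given further on and because 2 elements known for fibrinogen genes can be read in them. Each stretch covers the bases from 170 to 31 before the RefSeq start on GRCh38.p14 (140 bases, 5′ to 3′ along the gene's own strand). Capitals mark CTGGGA, the core of the interleukin-6 response element, and TTGCNNAA, a C/EBP pattern, on either strand.
FGA: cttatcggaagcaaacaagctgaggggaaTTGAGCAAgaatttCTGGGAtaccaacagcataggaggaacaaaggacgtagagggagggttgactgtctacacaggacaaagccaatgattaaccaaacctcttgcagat
FGB: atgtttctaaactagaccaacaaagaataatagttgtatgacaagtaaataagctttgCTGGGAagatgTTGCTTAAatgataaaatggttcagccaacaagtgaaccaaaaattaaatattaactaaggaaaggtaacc
FGG: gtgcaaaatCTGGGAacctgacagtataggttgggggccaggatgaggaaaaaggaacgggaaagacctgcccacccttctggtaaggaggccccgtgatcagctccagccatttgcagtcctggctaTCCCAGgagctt
The stretches are chr4:154590773-154590912 (minus) for FGA, chr4:154562810-154562949 (plus) for FGB and chr4:154612687-154612826 (minus) for FGG.

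CTGGGA was found in all 3 promoters, beginning 127 bases before the start in FGA, 112 in FGB and 161 in FGG, where a second match on the reverse strand began 42 bases before it. The longer form CTGGGAA, which contains CTGGGA, matched in FGB and FGG. The C/EBP pattern TTGCNNAA matched in FGA on the reverse strand 141 bases before the start and in FGB 101 bases before it, near CTGGGA in each, and was not found in the FGG window. The STAT pattern TTCNNNGAA matched in FGA alone, 231 bases before the start and outside the printed stretch, and TATAAA matched in none. Both strands were searched from 250 bases before to 50 after each start.

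Such short patterns are common. Among 35116 promoters of the same length, 33.3% held CTGGGA, 10.8% CTGGGAA, 10.5% TTGCNNAA, 7.66% TTCNNNGAA and 11.5% TATAAA. Both CTGGGA and TTGCNNAA stood in 3.1% of them (1089 promoters), FGA and FGB included. The printed stretches also differed in composition, with 30.7% G and C in FGB, 45.7% in FGA and 55.7% in FGG. The patterns were chosen with these promoters in view, and a match is a description of letters, not of binding.

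All 3 chains were low in the monolayer and higher in every spheroid library. Levels are CPM, counts scaled to a common library size with TMM factors, given as mean ± SD (n = 3). A level depends on its probe, so libraries are compared here and genes are not. FGA, the chain whose long C-terminal part factor XIII cross-links, stood at 77.7, 67.3 and 67.7 CPM in the 2D libraries. At Day 3 it stood at 672, 679 and 651 CPM, so the groups were far from overlapping. Its level was 1190, 1400 and 1510 CPM at Day 7 and 925, 940 and 999 CPM at Day 10, a lower band with no overlap. From Day 14 on the FGA libraries lay above all earlier ones, with 2100, 2110 and 1940 CPM (Day 14), 2450, 2990 and 2650 CPM (Day 21), and 3520, 3120 and 2870 CPM (Day 28). The libraries of the last pair of days overlapped.

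FGB encodes the beta chain, whose synthesis has been described as rate limiting for assembly of fibrinogen in hepatoma cells. It stood at 41.5, 40.5 and 41.9 CPM in the 2D libraries and at 163, 167 and 159 CPM at Day 3. Day 7 (296, 308 and 303 CPM) and Day 10 (297, 292 and 293 CPM) could hardly be told apart. FGB then stood at 391, 438 and 365 CPM at Day 14 and at 643, 612 and 596 CPM at Day 21. At Day 28 the libraries read 1310, 859 and 815 CPM, and replicate 1 lay well above the others, so that the SD at Day 28 (994 ± 270 CPM) was the widest of any FGB group. That library was also the shallowest of the 21, and whether depth had a part in its value was not tested.

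FGG encodes the gamma chain, which carries the main platelet binding site of fibrinogen and its end-to-end cross-link. It stood at 85.1, 86.4 and 75.9 CPM in 2D and at 649, 658 and 670 CPM at Day 3. Its mean, like that of FGA, was lower at Day 10 than at Day 7 and higher again at Day 14, with 979, 1080 and 1050 CPM (Day 7), 729, 734 and 770 CPM (Day 10), and 1490, 1600 and 1580 CPM (Day 14). Day 21 (2510, 2820 and 2520 CPM) and Day 28 (2770, 2730 and 2350 CPM) overlapped, and both stood above every earlier group. In raw counts the 2D values ranged from 979 (FGB) to 3394 (FGG), so counting error was small for every chain in every library.

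**Figure D2:**
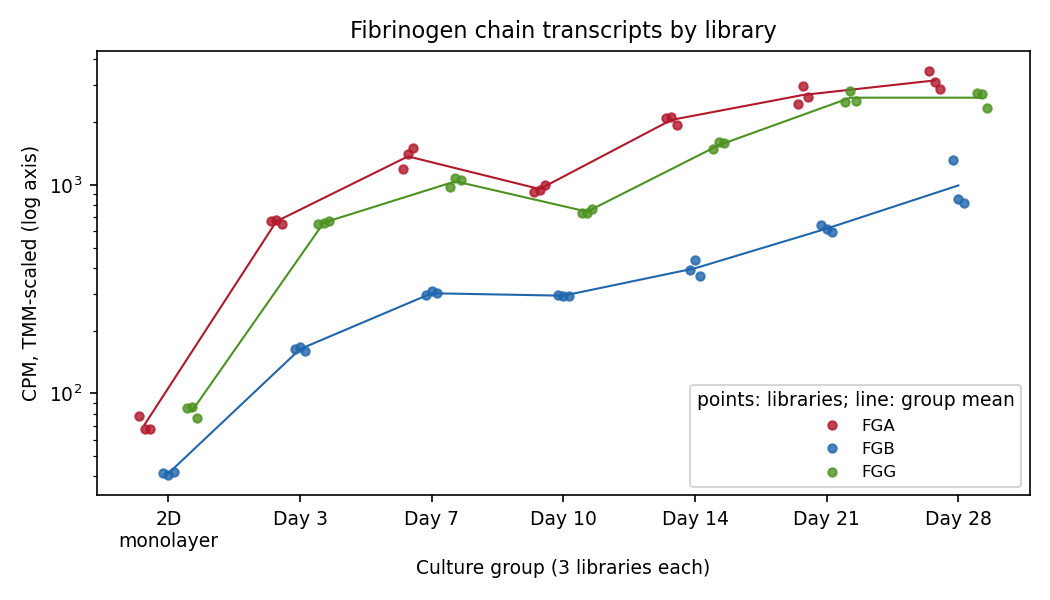
Level of each fibrinogen chain in every library, in TMM-scaled CPM on a log axis, by culture group. Points are libraries and lines join group means; for every chain the 3 2D libraries lie below all 18 spheroid libraries, and FGA and FGG dip at Day 10.

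Against the monolayer the chains rose at every spheroid day, and FGA rose furthest by fold. At Day 3 the log2 fold change was 3.24 ± 0.09 (SE) for FGA, a 9.42-fold rise with an edgeR adjusted p of 9.55e-25. It was 3.00 ± 0.073 for FGG (7.99-fold, adjusted p 6.17e-27) and 1.98 ± 0.12 for FGB (3.95-fold, adjusted p 1.02e-11), again from edgeR. All 3 were called higher (adjusted p under 0.05 over all genes tested) and none overlapped with 2D. Calls were common, with 40.1% of the genes tested called higher at Day 3 and 37.8% lower. The share of all genes without overlap was not computed. The size of the change set the chains apart more than the call: the median log2 fold change of all genes tested was 0.056, and FGA, FGG and FGB stood at percentiles 94.14, 93.15 and 86.33 of that distribution.

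By Day 28 the rise reached 5.48 ± 0.099 on the log2 scale for FGA (44.8-fold, edgeR adjusted p 6.99e-29), 4.99 ± 0.08 for FGG (31.8-fold, adjusted p 5.32e-31) and 4.59 ± 0.14 for FGB (24.1-fold, adjusted p 5.68e-17). All 3 were called, where 38.5% of the genes tested were called higher and 34.8% lower. They then stood at percentiles 99.58, 99.28 and 99.01 of all genes tested, whose median was 0.084. Without Day 28 replicate 1 the FGB value was 4.33 ± 0.068. The days between gave log2 fold changes against 2D of 3.75 to 5.25 for FGA, 2.83 to 3.90 for FGB and 3.17 to 4.99 for FGG. All 3 chains were called higher on each of them, beside 40.4%, 40%, 38.7% and 39.3% of genes on Days 7, 10, 14 and 21. The 6 comparisons share the same 2D libraries.

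The 3 chains together took 0.0175% ± 0.00062 of all counts in 2D. Over Days 3, 7 and 10 their share was 0.156% ± 0.0013, 0.273% ± 0.02 and 0.197% ± 0.0073, and over Days 14, 21 and 28 it was 0.411% ± 0.01, 0.593% ± 0.037 and 0.706% ± 0.061 (SD, n = 3). In bulk RNA, more cells that transcribe a gene and more of its RNA per cell cannot be told apart.

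The course within the spheroids was not a steady climb. All 3 chains rose from Day 3 to Day 7, FGA and FGG fell back at Day 10, all rose again by Day 14 and by Day 21, and they parted between Days 21 and 28. An F test over the 6 spheroid days in edgeR called each chain, with F = 217 for FGA (adjusted p 7.87e-21), 125 for FGB (1.25e-12) and 335 for FGG (5.93e-24). It also called 76.2% of the genes tested. Without Day 28 replicate 1 the F of FGB was 385.

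From Day 3 to Day 7 the log2 fold change was 1.04 ± 0.082 for FGA (edgeR adjusted p 1.53e-10), 0.89 ± 0.12 for FGB (2.27e-05) and 0.65 ± 0.067 for FGG (1.74e-08). All 3 were called higher beside 10.6% of the genes tested. From Day 7 to Day 10 FGA fell by 0.52 ± 0.081 (edgeR adjusted p 1.38e-05) and FGG fell by 0.48 ± 0.067 (2.31e-06), 2 of 3 members beside 13.5% of genes called lower. FGB stood at 302 ± 6.2 and 294 ± 2.6 CPM on these days, a log2 difference of -0.04 ± 0.12 (edgeR adjusted p 0.836).

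From Day 10 to Day 14 FGA rose by 1.1 ± 0.082 (edgeR adjusted p 1.1e-12) and FGG by 1.06 ± 0.068 (1.16e-14). FGB rose by 0.44 ± 0.12 (edgeR adjusted p 0.00408) in that step, in which 24% of the genes tested were called higher and 24.3% lower. From Day 14 to Day 21 the values were 0.40 ± 0.081 for FGA (edgeR adjusted p 0.000378), 0.63 ± 0.12 for FGB (0.000372) and 0.75 ± 0.067 for FGG (2.61e-10). All 3 were called higher there, beside 13.9% of genes.

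From Day 21 to Day 28 FGB rose by 0.69 ± 0.12 (edgeR adjusted p 0.000222) with no overlap, and by 0.46 ± 0.062 without Day 28 replicate 1 (adjusted p 7.3e-07). FGG stood at 2620 ± 180 and 2620 ± 230 CPM, a log2 difference of 0.00 ± 0.067 (edgeR adjusted p 0.996). FGA was called with a log2 fold change of 0.23 ± 0.081 (edgeR adjusted p 0.034), but its libraries overlapped. That call was lost in a fit of those 2 groups alone (0.25, adjusted p 0.123). It was lost as well without Day 21 replicate 1 (0.17, adjusted p 0.21), Day 21 replicate 3 (0.22, 0.0905), Day 28 replicate 1 (0.17, 0.128) or Day 28 replicate 2 (0.24, 0.0768). In this step 10% of the genes tested were called higher.

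**Figure D3:**
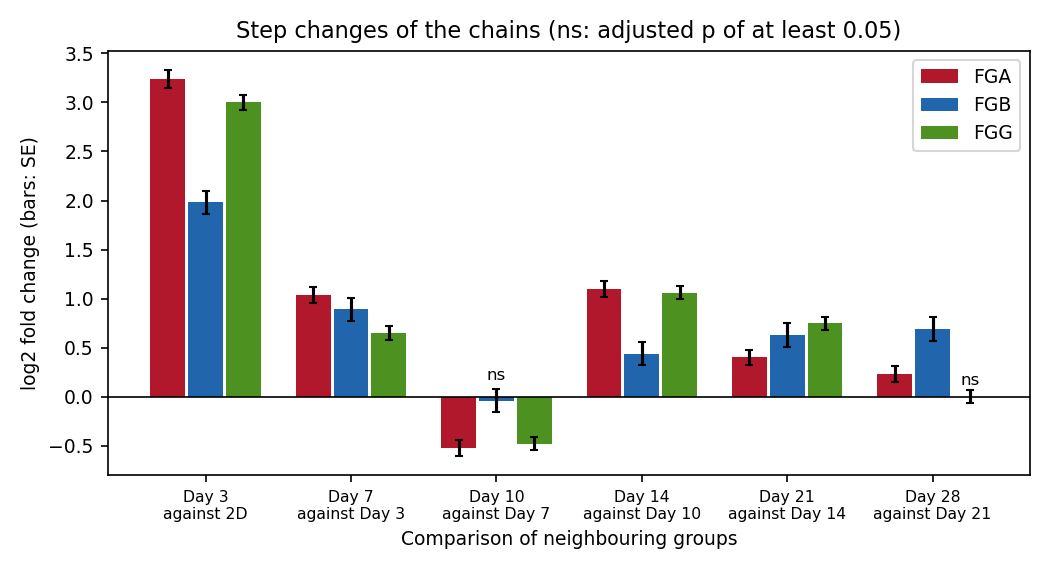
Log2 fold change of each chain between neighbouring groups, from the edgeR fit. Bars are the estimates, error bars are SE, and ns marks an adjusted p of at least 0.05; FGA and FGG lie below 0 at Day 10 against Day 7, and at Day 28 against Day 21 the bar of FGB is the tallest.

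From Day 3 to Day 28 as a whole, FGB rose by a log2 fold change of 2.61 ± 0.12 (6.1-fold, edgeR adjusted p 3.75e-13). FGA rose by 2.25 ± 0.085 (4.75-fold, adjusted p 3.79e-20) and FGG by 1.99 ± 0.069 (3.97-fold, adjusted p 1.31e-21) in the same edgeR fit. All 3 were called higher beside 29.5% of the genes tested, with 30.2% lower. Their percentiles were 98.23 (FGB), 97.56 (FGA) and 96.76 (FGG), with a median over all genes of 0.005.

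In order of mean level, every chain ran Day 28, Day 21, Day 14, Day 7, Day 10, Day 3 and 2D, except that Days 28 and 21 were level in FGG. The neighbours in this order that did not pass the test were Days 7 and 10 in FGB, Days 28 and 21 in FGG, and Days 10 and 3 in FGG. The other neighbours were called, among them Day 10 above Day 3 for FGA and FGB (11.1% of genes called higher) and Day 14 above Day 7 for all 3 (23% of genes). For Days 10 and 3 the FGG libraries did not overlap, and the log2 difference was 0.18 ± 0.067 (edgeR adjusted p 0.0592).

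The balance between the chains was read as the log2 ratio of their counts within a library, in which library scaling cancels. The ratio itself depends on the probes, so its differences between groups are what can be read. The FGA/FGB log2 ratio was 0.91, 0.73 and 0.69 in the 2D libraries and between 1.43 and 2.43 in the 18 spheroid libraries, with no overlap. Its mean was 1.24 higher in spheroids, a 2.36-fold shift towards FGA (exact two-sided permutation test, p = 0.0015, the smallest this design allows, adjusted p 0.00226). The FGA/FGG ratio also shifted towards FGA, by 0.47 (exact permutation p = 0.0015, adjusted p 0.00226), with -0.36 to -0.13 in 2D and -0.04 to 0.53 in spheroids. The FGG/FGB ratio was 0.77 higher in spheroids (1.71-fold, exact permutation p = 0.00301, adjusted p 0.00301). In that ratio the groups overlapped through Day 28 replicate 1, at 1.08 beside 0.86 to 1.09 in 2D. The p-values are adjusted over the 3 ratios, and the spheroid libraries come from 6 days that are not replicates of 1 condition.

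Within the spheroids the FGB ratios moved with the days. FGA/FGB averaged 2.03 ± 0.01, 2.17 ± 0.15 and 1.70 ± 0.065 on Days 3, 7 and 10, and 2.37 ± 0.088, 2.13 ± 0.18 and 1.70 ± 0.24 on Days 14, 21 and 28 (SD, n = 3). It was thus lowest at Days 10 and 28, the days on which FGB had held or gained against the other chains. From Day 7 to Day 10 FGA/FGB differed by -0.47 and FGG/FGB by -0.44, and from Day 21 to Day 28 they differed by -0.42 and -0.66. None of these 4 overlapped, but exact permutation tests of 3 libraries against 3 cannot go below p = 0.1. Of 18 such comparisons between neighbouring groups, Day 3 against 2D included, 13 were without overlap. The smallest adjusted p of the exact tests was 0.138. How often ratios of other genes were without overlap was not computed. The later days as a block (14 to 28) differed from the earlier ones (3 to 10) by less than their spread, FGA/FGB by 0.10, FGG/FGB by 0.12 and FGA/FGG by -0.02 (exact permutation, adjusted p 0.711, 0.711 and 0.828). That split was chosen with earlier results known. Each block pools 3 different days between which the ratios moved, so these values do not show that the ratios were stable.

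**Figure D4:**
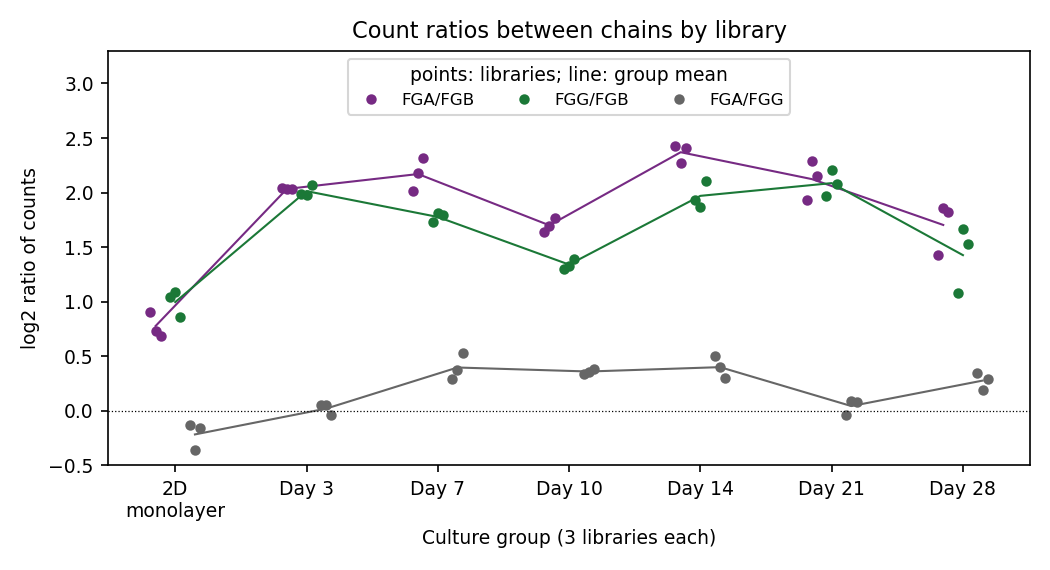
Log2 ratio of counts between chains by library and culture group. Points are libraries and lines join group means; all 3 ratios are lowest in 2D, and both ratios over FGB are lower at Days 10 and 28 than on the days before.

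Secreted liver proteins moved in both directions at Day 14 against Day 10, the step in which the chains rose. Of 21 other acute phase proteins tested 8 were called higher and 9 lower, beside 24% and 24.3% of all genes. In that list SERPINA3 rose by 2.88 ± 0.24, LCN2 by 1.73 ± 0.12 and HP by 0.48 ± 0.093 on the log2 scale. Outside it, F7 rose by 1.39 ± 0.076 and SERPINF2 by 0.50 ± 0.071. The list also holds proteins that fall in an acute phase response, among them ALB, TF, TTR and AHSG. ALB, serum albumin, rose from 1860 ± 84 CPM in 2D to 18200 ± 440 CPM at Day 10 and then stood at 9370 ± 1400 CPM at Day 14, a log2 change of -0.96 ± 0.14 (edgeR adjusted p 2.12e-05). In the same step TF, the iron carrier transferrin, fell by 0.94 ± 0.16 (edgeR adjusted p 0.000117) and TTR, the thyroxine carrier transthyretin, fell by 0.46 ± 0.096 (0.000271). AHSG, fetuin-A, differed by -0.11 ± 0.11 (edgeR adjusted p 0.446).

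The log2 ratio of each chain to ALB shows the size of this divergence between Days 14 to 28 and Days 3 to 10 (9 libraries each). The FGA/ALB ratio was -1.82 ± 0.37 on the later days and -4.05 ± 0.22 on the earlier, a 4.69-fold shift. The FGB/ALB ratio was -3.89 ± 0.63 and -6.02 ± 0.11, a 4.39-fold shift, and the FGG/ALB ratio was -2.06 ± 0.44 and -4.31 ± 0.24, a 4.76-fold shift. The libraries of the earlier and later days did not overlap in any of the 3 ratios. ALB and the split between days were chosen after these levels were seen, so the values are a description with no test, and each side pools 3 different days.

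**Figure D5:**
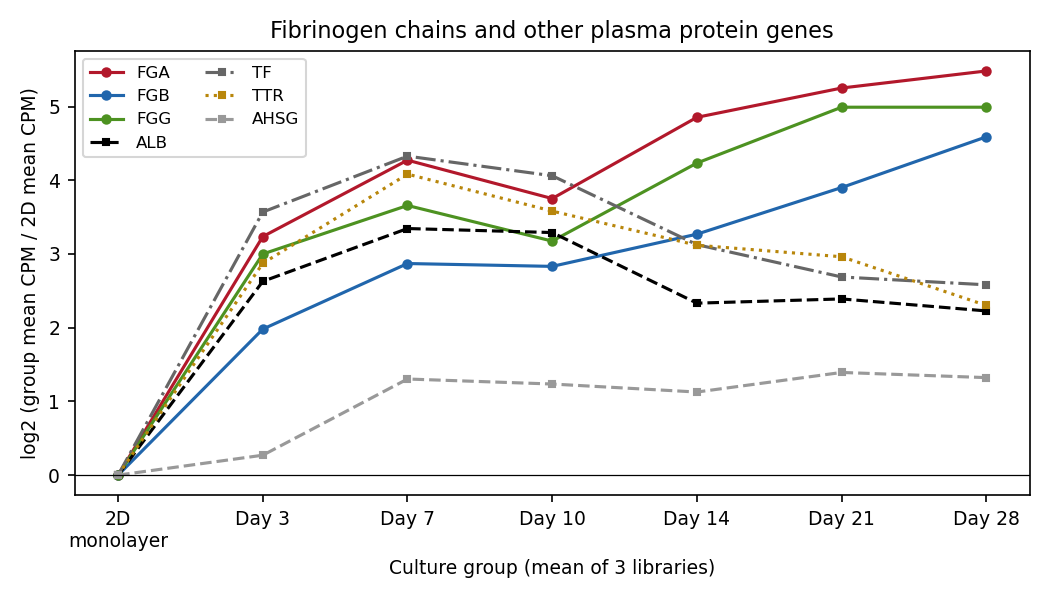
Log2 of the group mean CPM over the 2D mean CPM for the 3 fibrinogen chains and 4 other plasma protein genes (ALB, TF, TTR and AHSG), by culture group. All 7 lie above 0 in spheroids; from Day 14 the chains stand higher than at Day 10, while ALB, TF and TTR stand lower.

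The genes whose course over the 7 group means was nearest to the mean of the 3 chains were found by the root mean square difference of log2 CPM, each gene centred on its own mean. Over the 7203 genes that averaged 10 CPM or more, the median distance was 1.61. Other than the chains, the nearest were LACTBL1 (distance 0.325), the prolactin receptor PRLR (0.326), the hepatic iron sensor TFR2 (0.384) and the organic anion transporter SLC22A9 (0.475). Next came the alcohol dehydrogenase ADH6 (0.504), the hepatocyte glucose transporter SLC2A2 (0.515), coagulation factor F7 (0.523) and the heparan sulfate sulfotransferase HS6ST2 (0.533). The chains themselves lay at 0.128 (FGG), 0.219 (FGA) and 0.283 (FGB) from their mean, to which each contributes. Between single chains the distance was 0.489 (FGA and FGB), 0.38 (FGG and FGB) and 0.22 (FGA and FGG). The acute phase protein HP was at rank 20 (0.638) and ALB at rank 536 (1.14). PRLR, as an example, stood at 2.13 CPM in 2D and at 7.44, 13.9, 13.5, 22.0, 28.1 and 45.0 CPM at Days 3 to 28. The likeness covers 7 means and is a description.

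Of the coagulation factors apart from fibrinogen, 14 of 17 listed genes were tested. Day 3 against 2D called 8 of them higher and 2 lower, with a median log2 fold change of 1.48, beside 40.1% of all genes tested called higher and 37.8% lower. Day 28 against 2D called 11 higher and 2 lower, with a median of 2.43, beside 38.5% and 34.8% of all genes. The medians of all genes in these comparisons were 0.056 and 0.084. F2, prothrombin, whose product thrombin cuts fibrinogen, rose from 111 CPM in 2D to 260 at Day 3 and 306 at Day 28 (log2 fold changes 1.23 ± 0.066 and 1.46 ± 0.066). GGCX, the carboxylase that activates vitamin K-dependent factors, rose from 34.9 to 150 and 166 CPM (2.10 ± 0.08 and 2.24 ± 0.08), and F11 from 25.7 to 105 and 181 CPM (2.03 ± 0.081 and 2.81 ± 0.082). KLKB1 and VWF, the members with the largest fitted changes, stood at only 0.0339 and 0.0217 CPM in 2D and at 2.14 and 0.588 CPM at Day 28. Between Day 3 and Day 28, 9 of the 14 were called higher and 1 lower (median 0.35), beside 29.5% and 30.2% of all genes.

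Of the anticoagulant and fibrinolysis genes, which limit and dissolve the clot, 19 of 24 were tested. At Day 3 against 2D, 11 were called higher and 6 lower (median 1.29), beside 40.1% and 37.8% of all genes. At Day 28 12 were higher and 7 lower (median 1.51), beside 38.5% and 34.8%, so the counts of lower genes were near the share over all genes. SERPINF2, the plasmin inhibitor, rose from 241 CPM in 2D to 1760 at Day 3 and 2070 at Day 28 (log2 fold changes 2.87 ± 0.076 and 3.10 ± 0.077). SERPIND1, heparin cofactor II, rose from 787 to 1920 and 2990 CPM (1.29 ± 0.061 and 1.92 ± 0.062), and PROC, protein C, from 693 to 1200 and 1970 CPM (0.80 ± 0.071 and 1.51 ± 0.072).

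SERPINC1, antithrombin, stood at 175 CPM in 2D and 176 CPM at Day 3, a log2 difference of 0.01 ± 0.11 that became a call under library size alone (0.23). It was called at Day 28, at 589 CPM (1.75 ± 0.11). PLG, plasminogen, the precursor of the enzyme that digests fibrin, was at 0 in all 2D libraries and at most 0.979 CPM on average in any spheroid group. PLAUR, the urokinase receptor, fell from 12.7 CPM in 2D to 0.343 CPM at Day 28 (log2 fold change -5.28 ± 0.41). Day 28 against Day 3 called 8 members higher and 5 lower (median 0.27), beside 29.5% and 30.2% of all genes.

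Regulators of the acute phase response and of liver transcription, 34 of 35 tested, were called in each direction about as often as genes in general. At Day 3 against 2D 15 were called higher and 15 lower (median -0.11; all genes 40.1% and 37.8%), and at Day 28 against 2D 14 higher and 15 lower (median 0.02; all genes 38.5% and 34.8%). At Day 28 against Day 3, 11 were higher and 10 lower (median -0.01; all genes 29.5% and 30.2%). On the signalling side IL6R, the interleukin-6 receptor, fell from 620 ± 11 CPM in 2D to 74.7 ± 2.7 at Day 3 and 99.4 ± 6.8 at Day 28 (log2 fold changes -3.05 ± 0.08 and -2.64 ± 0.079). Its partner IL6ST, gp130, stood at 142, 160 and 197 CPM (0.18 ± 0.077 and 0.48 ± 0.077), and its Day 3 call was lost with RLE scaling (0.16, edgeR adjusted p 0.0658). STAT3, which carries the signal to the nucleus, was called lower at 16.0, 9.55 and 10.2 CPM (-0.75 ± 0.14 and -0.65 ± 0.14). SOCS3, a feedback inhibitor induced by STAT3, fell from 3.72 ± 0.15 CPM to 0.199 ± 0.19 at Day 3 and 0.211 ± 0.21 at Day 28 (-4.26 ± 0.69 and -4.04 ± 0.69). These spheroid levels were near the floor. In the same list SOCS1 rose from 0.689 CPM to 2.76 and 1.73 CPM (2.01 ± 0.3 and 1.34 ± 0.31). TYK2 changed by 0.67 ± 0.12 and 0.10 ± 0.12 (not called), and JAK1 by -1.57 ± 0.07 and -1.67 ± 0.071.

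Among the factors that bind fibrinogen promoters, CEBPA rose from 22.8 CPM in 2D to 230 at Day 3 and stood at 140 CPM at Day 28 (log2 fold changes 3.33 ± 0.084 and 2.62 ± 0.082). CEBPB, the family member most tied to the acute phase, fell from 499 to 59.6 CPM at Day 3 (-3.06 ± 0.072). It then rose from 54.0 CPM at Day 10 to 266 CPM at Day 14 (2.30 ± 0.07, edgeR adjusted p 1.03e-22), the step in which all 3 chains rose, and stood at 266 CPM at Day 28. In that step 12 of the 34 regulators tested were called higher and 5 lower, beside 24% and 24.3% of all genes. IL6R changed by 0.84 ± 0.077 and IL6ST by 0.48 ± 0.077 in it, and CEBPA by -0.24 ± 0.075. Whether any of these changes bears on the chains was not tested. CEBPD stood at 2.54, 5.38 and 3.91 CPM (1.05 ± 0.23 and 0.59 ± 0.24).

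HNF4A, a central hepatocyte factor, rose from 7.15 CPM in 2D to 18.1 at Day 3 and 25.1 at Day 28 (1.34 ± 0.11 and 1.81 ± 0.11), and ONECUT1, a liver developmental factor, from 0.778 to 6.58 and 6.20 CPM (3.06 ± 0.25 and 2.98 ± 0.25). NR3C1, the glucocorticoid receptor, fell from 73.5 to 23.9 CPM at Day 3 and stood at 53.6 CPM at Day 28 (-1.62 ± 0.09 and -0.45 ± 0.087). RELA, an NF-kB subunit, fell from 745 to 347 and 433 CPM (-1.1 ± 0.059 and -0.78 ± 0.059). These factors act as proteins, which were not measured.

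Genes listed as other acute phase proteins, 21 of 26 tested, were mostly higher in spheroids. The list also holds proteins that fall in an acute phase response, so its counts do not measure such a response. Of this kind, besides AHSG below, ALB, TTR, TF and RBP4 were called higher at Day 28 against 2D. Their log2 fold changes were 2.23 ± 0.15, 2.3 ± 0.1, 2.58 ± 0.17 and 1.99 ± 0.063. Day 3 against 2D called 17 higher and 2 lower (median 1.88; all genes 40.1% and 37.8%) and Day 28 against 2D called 19 higher and 1 lower (median 2.23; all genes 38.5% and 34.8%). Day 28 against Day 3 called 10 in each direction (median 0.11; all genes 29.5% and 30.2%). HP, haptoglobin, the binder of free haemoglobin, rose from 2.84 CPM in 2D to 45.1 at Day 3 and 59.8 at Day 28 (log2 fold changes 4.02 ± 0.12 and 4.43 ± 0.12). HPX, the haem binder hemopexin, stood at 0.218, 3.77 and 1.69 CPM (4.11 ± 0.3 and 2.95 ± 0.34). SERPINA1, alpha-1-antitrypsin, rose from 1550 to 4180 and 3650 CPM (1.43 ± 0.072 and 1.23 ± 0.072). AHSG, which falls in an acute phase response, stood at 3690, 4450 and 9230 CPM (0.27 ± 0.11 and 1.32 ± 0.11), and its Day 3 call was lost with RLE scaling (0.25, edgeR adjusted p 0.0517). CRP, the classical acute phase protein, averaged 0 CPM in all 7 groups and was not tested.

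Genes for folding and export from the endoplasmic reticulum, all 25 tested, were mostly lower at Day 3. Day 3 against 2D called 1 higher and 18 lower (median -0.61), beside 40.1% and 37.8% of all genes, and 5 higher and 14 lower with library size alone. Day 28 against 2D called 11 in each direction (median 0.02), near the shares of 38.5% and 34.8% over all genes, and 12 higher and 7 lower with library size alone. Day 28 against Day 3 called 19 higher and 3 lower (median 0.61), beside 29.5% and 30.2%. HSP90B1, the chaperone GRP94, stood at 1880 CPM in 2D, 1120 at Day 3 and 2680 at Day 28 (log2 fold changes -0.75 ± 0.069 and 0.51 ± 0.069). PDIA6, a disulfide isomerase, stood at 1390, 1170 and 1570 CPM (-0.25 ± 0.077 and 0.17 ± 0.077), and each of these calls was lost under at least 1 other scaling. VCP, which extracts misfolded proteins, stood at 1140 and 1080 CPM in 2D and at Day 3 (-0.08 ± 0.065, not called, and 0.14 with library size alone) and at 1470 CPM at Day 28 (0.36 ± 0.065). The COPII coat genes SEC24B and SEC23A were lower at Day 28, by -1.16 ± 0.08 and -1.11 ± 0.095.

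Relatives with a fibrinogen-like domain, are few among the genes tested (8 of 22). Day 3 against 2D called 5 higher and 1 lower (median 1.94; all genes 40.1% and 37.8%), and Day 28 against 2D called 5 higher and 0 lower (median 1.96; all genes 38.5% and 34.8%). Day 28 against Day 3 called 1 higher and 2 lower (median 0.42; all genes 29.5% and 30.2%). FGL1, a liver-secreted fibrinogen-like protein, fell from 133 CPM in 2D to 46.3 at Day 3 (log2 fold change -1.52 ± 0.081). At Day 28 it stood at 134 CPM (0.01 ± 0.078), a value that became a call with library size alone (0.23) and with upper quartile scaling (0.17). ANGPTL1 stood at 0.243, 7.89 and 1.73 CPM (5.16 ± 0.35 and 2.98 ± 0.41).

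Of 14 genes listed as neighbours of the fibrinogen cluster only 4 were tested. Day 3 against 2D called 2 higher and 2 lower (median 0.36), beside 40.1% and 37.8% of all genes. Day 28 against 2D called 2 higher and 0 lower (median 0.68), beside 38.5% and 34.8%, and Day 28 against Day 3 called 2 higher and 1 lower (median 0.26), beside 29.5% and 30.2%; 4 genes are too few to read these shares. PLRG1, a splicing factor gene 12520 bases from FGB, stood at 12.9 CPM in 2D, 8.41 at Day 3 and 12 at Day 28. Its log2 fold change was -0.63 ± 0.14 at Day 3 and -0.10 ± 0.14 at Day 28 (edgeR adjusted p 0.515; 0.11 with library size alone). LRAT, on the other side at 13977 bases from FGG, did not pass the filter on low counts. Farther off, TRIM2 changed by 1.05 ± 0.14 and 1.47 ± 0.14, MND1 by 3.59 ± 0.19 and 2.09 ± 0.20, and TMEM131L by -0.33 ± 0.13 (a call lost with library size alone and with upper quartile scaling) and -0.22 ± 0.13 (edgeR adjusted p 0.114).

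The label of a liver epithelial line was checked against marker genes. The 9 hepatocyte markers, all tested, summed to 27800 to 30600 CPM in the 2D libraries, rose to between 86300 and 96800 CPM at Day 7 and stood at 50000 to 59800 CPM at Day 28. This sum had its peak at Day 7, while the chains had their highest means at Day 28, FGG together with Day 21. APOA2 and ALB, the most abundant markers, weigh most in the sum and had their highest means at Day 7, as did TTR and TF. The other markers differed, with the highest mean at Day 3 for APOB, Day 10 for APOA1 and SERPINA1, Day 21 for AHSG and Day 28 for HNF4A. Markers of other liver cells were partly present. The 5 endothelial markers summed to at most 1.4 CPM in any library and KDR was at 0. The 6 stellate or fibroblast markers summed to at most 3.29 CPM, mostly PDGFRB, and COL1A1, COL1A2 and DCN were at 0. The 5 macrophage or blood markers summed to between 28.1 and 69.4 CPM, nearly all CD68, with PTPRC, CD163 and MARCO at 0. The 5 cholangiocyte markers summed to between 471 and 866 CPM, mainly SOX9 and EPCAM, with CFTR at 0 and KRT7 at most 0.0441 CPM on average. KRT19, a duct keratin, stood at 61.4 ± 6.3 CPM in 2D, 14.2 at Day 3 and 1.03 at Day 28 (log2 fold changes -2.11 ± 0.18 and -5.89 ± 0.24). SOX9 went the other way, at 356, 718 and 411 CPM (1.01 ± 0.063 and 0.21 ± 0.063). EPCAM stood at 135, 109 and 81 CPM (-0.31 ± 0.073, a call lost with library size alone, and -0.74 ± 0.074). The part of these markers in the results on the chains was not tested.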

How the data were processed

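RNA of 21 libraries (7 groups of 3; 100 ng each, per the labels' protocols) was measured by TempO-Seq. The authors deposited raw counts per gene symbol. Tools listed without role or order in the submitters' processing notes are STAR 2.7.10b, DESeq2 1.38.0, fastp 0.23.2 and bcl2fastq 2.20.422, with build GRCh38.p13. The sources used here do not say how oligos of a gene were combined or attenuated.

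Genes passing filterByExpr (minimum count 10) were kept; the 7338 others held 0.0108% of counts. Counts were fitted over all groups in edgeR 4.0.16 (R 4.3.3; TMM, robust quasi-likelihood, biological coefficient of variation 9.62%, 14 residual degrees of freedom), with calls at a Benjamini-Hochberg adjusted p under 0.05. The SE is the log2 fold change divided by the square root of F. The script was tested on simulated data. Replicate pairs differed by more than sampling noise (chi-square per degree of freedom 5.68 to 29.7). Ratios were tested by exact permutation (scipy 1.17.1). Genes named were the chains, the 8 nearest in course, in each list the 3 most abundant and 2 most changed at Day 28 against 2D, all tested neighbours, and a few fixed besides; some genes so named are not reported here. Medians of the lists with genes at 0 in a whole group set to a floor of 3 counts over the group moved by at most 0.01. Alternatives were other scalings, filters, DESeq2 1.42.0, a replicate block, fits of the groups compared alone and leaving out each library. The members and lists were chosen with earlier results of these data known. Symbols were matched to GENCODE 29 and RefSeq tables; all 3 chains matched.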

Additional observations from a re-analysis of the deposited data

How the results depend on the processing

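Apart from leaving out a library, 394 recomputed values covered the members, ratios and lists, and 389 kept their direction and their side of the threshold (counts: stayed within 1.5 times); of 450 values without 1 library 438 did. The exceptions were few. FGA at Day 28 against Day 21 lost its call in a fit of the groups compared alone (0.25, edgeR adjusted p 0.123) and ranged from 0.17 to 0.33 without 1 library. FGG in the same step, at a difference near 0, was -0.00 with no filter on low counts (edgeR adjusted p 1) and ranged from -0.03 to 0.07 without 1 library. The FGA/FGG ratio of later against earlier days ranged from -0.06 to 0.02. With at least 10 CPM in 3 libraries, 7 coagulation genes (11 otherwise) and 1 fibrinogen-domain gene (5 otherwise) were called higher at Day 28, since fewer genes were tested; with library size alone, 7 folding genes were called lower (11 otherwise).

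Library size alone moved the median log2 fold change of all genes at Day 28 against 2D from 0.08 to 0.30 and upper quartile scaling to 0.24; FGA, FGB and FGG then read 5.70, 4.79 and 5.20, and 5.64, 4.75 and 5.15. The labels tie the replicate numbers to no shared batch or day. Deviations of same-numbered libraries had a median correlation of 0.047 over 63 pairs (19 over 0.1), beside -0.0341 over 126 pairs of unlike number (21 over 0.1), and 15 of 21 libraries correlated best with their own number, a hint of pairing from the data and not the design. With the replicate number as a block FGA at Day 28 against 2D was 5.48 and FGA at Day 28 against Day 21 was 0.23 (edgeR adjusted p 0.0403). The block changed no call of a chain, and genes called at Day 28 against Day 21 went from 2964 to 3203. Without Day 28 replicate 1, FGB at Day 28 against Day 21 was 0.46. Every chain had at least 979 counts in every library, while genes near 0 such as PLG were limited by depth. Whether depth bore on the levels of the chains in other ways was not tested.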
